A study of Danio rerio with 8 samples.

Results

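The lens crystallins were the array probes that carry an accession of a zebrafish gene whose RefSeq symbol starts with cryaa, cryab, cryba, crybb, crygm, crygn or crygs. The rule took 57 genes, of which 52 had a probe. These are among 13293 genes named on the array and hold 87 of its 43603 probes. It used the gene symbols and no measured value. The alpha family held 3 genes with 9 probes, the beta A family 7 genes with 18 probes, the beta B family 5 genes with 11 probes, the gamma M family 31 genes with 40 probes, the gamma N family 2 genes with 4 probes and the gamma S family 4 genes with 5 probes. No probe was found for crybb1l1, crygm2d1, crygm2d19, crygm2d5 and crygm2e.

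The larvae were whole zebrafish (Danio rerio) at 96 h, and total RNA of the larvae pooled from a dish was labeled with Cy3 and hybridized to Agilent one-color arrays. The control group was not treated and had 2 arrays. ZnO NPs, zinc oxide nanoparticles, were given at 2.64 mg/L (3 arrays), and ZnSO4, a soluble zinc salt, at 7.75 mg/L (3 arrays), each a concentration that the study took from the survival of exposed embryos. The comparisons ask whether particles and dissolved zinc change transcription in the same way, and with 2 or 3 arrays a group, p-values measure only the spread between these pooled samples. In whole-larva RNA, fewer lens cells and less crystallin RNA per lens cell cannot be told apart.

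Crystallins are the soluble proteins that fill the elongated fiber cells of the vertebrate lens and give it transparency and refractive power. Alpha crystallins are small heat shock proteins that keep other proteins from aggregating. Beta crystallins form oligomers, and gamma crystallins are compact monomers of the same fold. The gamma M crystallins are methionine-rich proteins known from the dense, round lenses of fish. The zebrafish lens keeps adding fiber cells in the larval stage.

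Values are log2 processed signals minus the 75th percentile of the same array, so that 0 is the level of that percentile and a difference of 1 is a 2-fold difference. A value tells how 1 probe differs between arrays, and probes are not ranked against each other. Only probes that the scanner software marked as well above background on all arrays of some group were tested, 34616 in all. Of the 87 crystallin probes, 75 probes of 47 genes entered. The other 12 were both probes of cryaba, crygm6 and crygm7, the only probes of crygm2d21 and crygs2, 2 probes of cryabb and 1 probe each of crygm4 and crygs3. A probe passed limma (Benjamini-Hochberg adjustment over all 34616 probes) if its fold change was at least 1.5 and its adjusted p was under 0.05.

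All 8 arrays were on 1 slide, and the side of the slide was inferred from a position number in the file headers. The controls lay on the same side of it as ZnO NP replicates 1 and 2, and the other side held the third ZnO NP array with all ZnSO4 arrays, so that no ZnSO4 array shared a side with a control, and a fit of that comparison with the side as a block takes the side term from the ZnO NP arrays alone. From 77.5% to 85.8% of the spots were well above background, with the lowest share on control replicate 1. That array also had 488 probes at least 1.5-fold below every other array and 235 at least 1.5-fold above, against 12 to 102 below and 11 to 179 above on the other 7 arrays. Among the 75 crystallin probes, control replicate 1 was the highest array for 70, against 23.3% of all tested probes. The medians over the family are therefore given below with both controls and with each alone, and named probes with both controls and mostly also without control replicate 1. No crystallin probe had a saturated spot among the spots kept, and none lost all its spots to outlier marks on any array. The zinc-induced metallothionein mt2, as a check of the exposure, read 1.68 to 1.87 times the control in ZnO NPs and 1.98 to 2.04 times in ZnSO4 on its 3 probes, and none of these passed limma (adjusted p = 0.11 to 0.19).

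The crystallin families were high on a single control array and low on the ZnSO4 arrays. Relative to each probe's mean over the 8 arrays, the median of the 75 probes was 0.93 on control replicate 1 and -0.18 on control replicate 2. It was -0.09, 0.11 and 0.02 on the ZnO NP arrays and -0.20, -0.26 and -0.30 on the ZnSO4 arrays. In this median control replicate 1 stood apart, and control replicate 2 lay between the ZnO NP arrays and the ZnSO4 arrays. The median difference between the control arrays was 1.07.

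**Figure D1:**
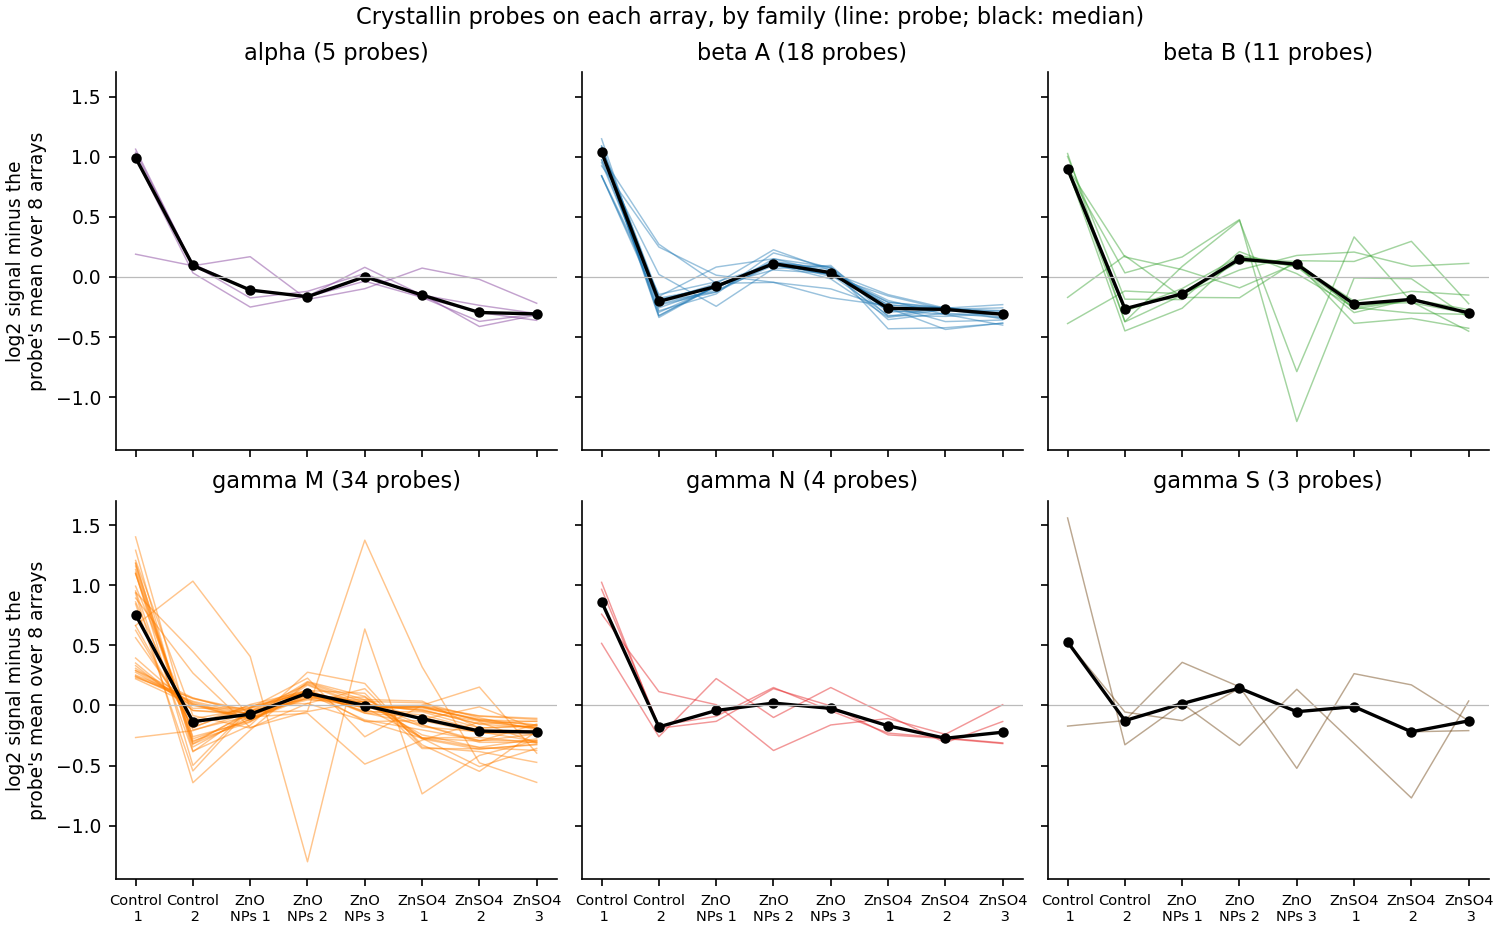
Log2 signal of each tested crystallin probe minus its own mean over 8 arrays (vertical axis), by array (horizontal axis) and family, where thin lines are probes and the black line with points is the median of the family. Control replicate 1 is the high point of every family, with medians from 0.53 for gamma S to 1.04 for beta A, and the ZnSO4 medians lie at or below -0.01.

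Control replicate 1 exceeded each of the other 7 arrays by at least 1.5-fold for 49 of the 75 crystallin probes, against 0.679% of all tested probes. The crystallins made up 20.9% of the 235 probes of the series with that pattern. All 18 beta A probes had it, and so did 4 of 5 alpha, 7 of 11 beta B, 16 of 34 gamma M, 3 of 4 gamma N and 1 of 3 gamma S probes. No crystallin probe stood out in that way on control replicate 2, on ZnO NP replicates 1 and 2 or on any ZnSO4 array, and 1 probe (crygm4) did on ZnO NP replicate 3. The lowest of the 8 arrays was ZnSO4 replicate 3 for 31 of the 75 probes and ZnSO4 replicate 2 for 23. No crystallin probe was at least 1.5-fold below all other arrays on either, and the share over all probes is not given for these counts.

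Neither zinc form gave a crystallin probe that passed limma against the control. None of the 75 was called in ZnO NPs, where 0.0433% of all probes were, or in ZnSO4, where 0.0231% were. The median log2 fold change was -0.33 in ZnO NPs and -0.61 in ZnSO4, with 72 of 75 probes below 0 in each, beside medians of 0.03 and 0.02 over all tested probes. Both comparisons use the same control arrays. At an unadjusted p under 0.05 and at least 1.5-fold, 9 crystallin probes were lower in ZnO NPs (background 0.953%) and 18 in ZnSO4 (background 1.01%), and none was higher. With the slide side as a block, the ZnSO4 count fell to 6 lower (background 1.54%) and 1 higher, with a median log2 fold change of -0.61, and the ZnO NP count was 10 lower (background 1.05%). The one-way ANOVA of the study's methods with LSD comparisons, unadjusted and with the same fold, gave 5 lower in ZnO NPs (background 0.644%) and 9 in ZnSO4 (background 0.725%). The smallest adjusted p was 0.098 in ZnO NPs (crygmxl1) and 0.14 in ZnSO4 (crygmx).

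The size and the sign of these differences turned on the control array. Against control replicate 2 alone, the median crystallin difference was 0.20 in ZnO NPs, with 52 of 75 probes above 0, and -0.07 in ZnSO4, with 25 above 0. Against control replicate 1 alone it was -0.94 and -1.19, with 4 probes above 0 in each. In the limma fit without control replicate 1, which takes the lone control to vary like the treated arrays, no crystallin probe was called. In the fit without control replicate 2, where 77 crystallin probes met the background filter, 52 of 77 crystallin probes were called lower in ZnO NPs (background 1.21%) and 53 of 77 in ZnSO4 (background 1.02%). The 77 include both crygm7 probes, which entered that fit only through control replicate 1, where they are high. Their direction is set by the filter, so they are no support for a change. The fit without control replicate 2 also takes its lone control to vary like the treated arrays. Its p-values therefore leave out the gap between the control arrays, and its calls are not read as a change. Of the 21 tested probes named by rule, all 21 were below 0 in both zinc forms without control replicate 2. They ran from -1.62 to -0.23 in ZnO NPs and from -1.91 to -0.24 in ZnSO4. Without control replicate 1, 14 of the 21 were below 0 in ZnO NPs and 19 in ZnSO4. Besides the alpha genes, the rule took large changes and small p in these data, so these counts are no separate support. The values do not tell which of the control arrays is nearer to untreated larvae in general.

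**Figure D2:**
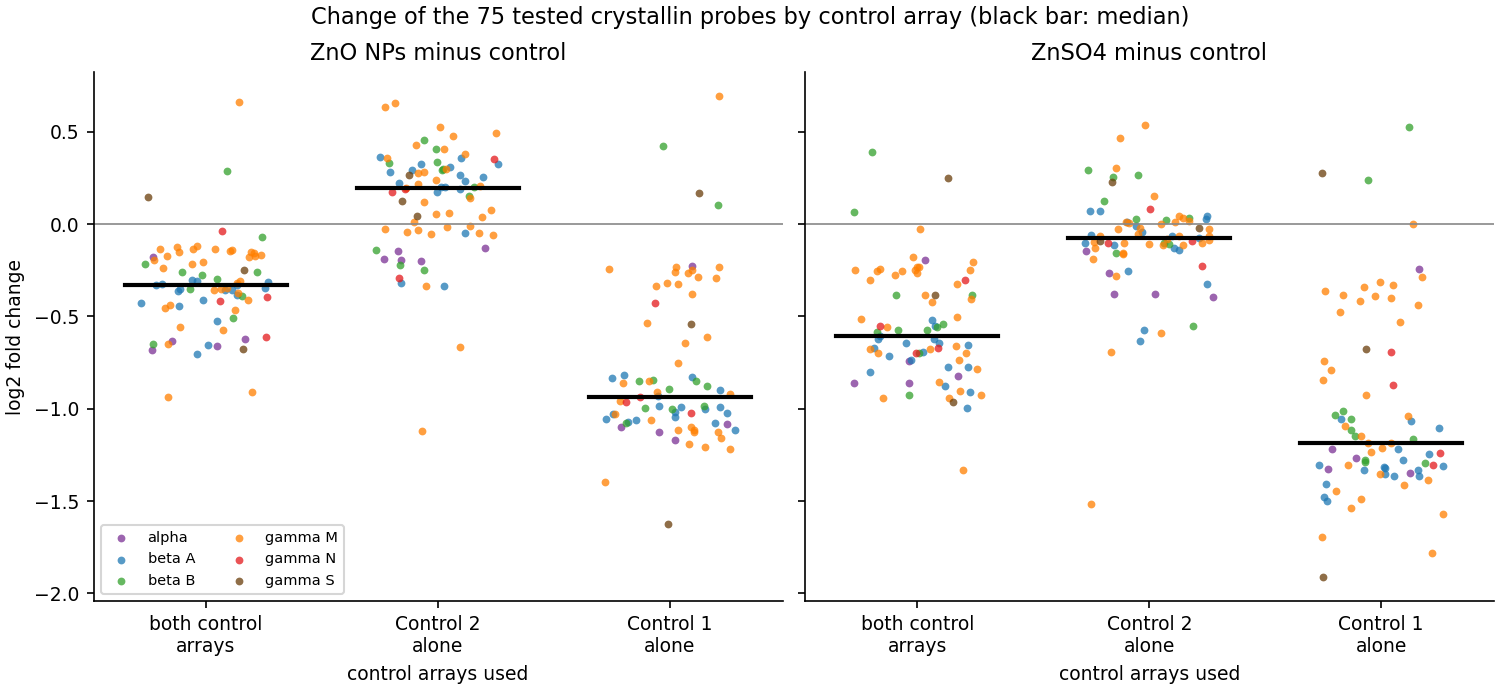
Log2 fold change of each of the 75 tested crystallin probes (points, colored by family, spread sideways only for legibility) in ZnO NPs and in ZnSO4, computed with both control arrays or with 1 of them, with the median as a black bar. The ZnO NP medians go from -0.33 with both to 0.20 with control replicate 2 alone and -0.94 with control replicate 1 alone, and the ZnSO4 medians from -0.61 to -0.07 and -1.19.

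Counted by arrays, 11 crystallin probes were lower on all ZnO NP arrays than on both controls, a share near the background of 18.2%, and 1 was higher. In ZnSO4, 36 of 75 were lower on all arrays than on both controls, against 19.6% of all probes, and 1 was higher. The 36 held all 5 alpha, 10 beta A, 3 beta B, 15 gamma M and 3 gamma N probes. Among them, a crybb2 and a crygm1 probe passed the filter only through the controls, where they are high. The same crygm1 probe is among the 11, and neither probe adds support. By family, the median log2 fold changes in ZnO NPs and ZnSO4 were -0.64 and -0.82 for alpha, -0.36 and -0.68 for beta A, and -0.27 and -0.56 for beta B. Without control replicate 1 the alpha medians stayed below 0, at -0.19 and -0.38, while the beta A medians were 0.24 and -0.07 and the beta B medians 0.29 and 0.03.

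Among the alpha crystallins, cryaa, the lens-specific alpha A chaperone, was lower than both controls in ZnSO4 on all 4 of its probes. The cryaa probe A_15_P107823 read 2.13 and 1.17 without zinc, 0.96, 0.90 and 1.03 with ZnO NPs and 0.90, 0.70 and 0.76 with ZnSO4. The treated arrays therefore lay below both controls without overlap, and ZnO NPs lay above or level with the highest ZnSO4 array. The limma fit gave it a difference from control of -0.68 for ZnO NPs (SE 0.24, adjusted p = 0.15) and -0.86 for ZnSO4 (SE 0.24, adjusted p = 0.18). The other cryaa probes gave -0.62 to -0.66 and -0.74 to -0.86. Without control replicate 1 the 4 probes gave -0.14 to -0.20 in ZnO NPs and -0.26 to -0.40 in ZnSO4.

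The alpha B crystallin genes of the set are cryaba and cryabb. Neither cryaba probe and only 1 of 3 cryabb probes entered the tests. That cryabb probe (A_15_P139611) was well above background on all 8 arrays and read -4.00 and -4.10 without zinc, -4.02, -4.38 and -4.29 with ZnO NPs and -4.12, -4.21 and -4.41 with ZnSO4. The groups overlapped or lay within 0.02 of each other, and the log2 fold changes were -0.18 (SE 0.13, adjusted p = 0.41) and -0.20 (SE 0.13, adjusted p = 0.44), and -0.13 and -0.15 without control replicate 1.

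The beta A probes shared the excess on control replicate 1. Control replicate 1 exceeded control replicate 2 by 0.68 to 1.41 on the 18 probes. The probe of cryba2b with the smallest p between the zinc forms (A_15_P113660) read 4.81 and 3.56 without zinc, 3.80, 3.87 and 3.80 with ZnO NPs and 3.29, 3.30 and 3.34 with ZnSO4. ZnO NPs thus lay between the control arrays and ZnSO4 below both. The log2 fold change came to -0.36 in ZnO NPs (SE 0.30, adjusted p = 0.48) and -0.88 in ZnSO4 (SE 0.30, adjusted p = 0.22), and to 0.27 and -0.25 without control replicate 1. The other cryba2b probes gave -0.43 and -0.44 in ZnO NPs and -0.73 and -0.78 in ZnSO4.

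For cryba1l2, another beta A gene, 2 of 3 probes were lower than both controls in ZnO NPs and all 3 in ZnSO4. The cryba1l2 probe A_15_P655436 read 1.70 and 0.97 without zinc, 0.64, 0.65 and 0.60 with ZnO NPs and 0.44, 0.26 and 0.31 with ZnSO4. The 3 groups did not overlap and fell in the order control, ZnO NPs, ZnSO4. It differed from the control by -0.70 in ZnO NPs (SE 0.19, adjusted p = 0.11) and -0.998 in ZnSO4 (SE 0.19, adjusted p = 0.14), and -0.34 and -0.63 without control replicate 1. The remaining cryba1l2 probes gave -0.65 and -0.52 in ZnO NPs and -0.91 and -0.80 in ZnSO4.

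The beta B crystallins were split. The 4 crybb1 probes and the 2 crybb1l2 probes followed the beta A pattern, with log2 fold changes of -0.22 to -0.39 in ZnO NPs and -0.38 to -0.70 in ZnSO4. The crybb1 probes read above the control when control replicate 1 was left out, by 0.30 to 0.40 in ZnO NPs and 0.02 to 0.13 in ZnSO4. The crybb1l3 probe A_15_P112758 read -2.47 and -3.21 without zinc, -3.32, -3.47 and -3.27 with ZnO NPs and -3.77, -3.73 and -3.81 with ZnSO4, again 3 groups without overlap. Against the control this gave -0.51 in ZnO NPs (SE 0.19, adjusted p = 0.17) and -0.92 in ZnSO4 (SE 0.19, adjusted p = 0.16), and -0.14 and -0.55 without control replicate 1.

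The genes crybb2 and crybb3 departed from that pattern. The crybb2 probe A_15_P626311 read -4.67 and -5.53 without zinc, -5.40, -5.09 and -6.77 with ZnO NPs and -5.57, -5.58 and -5.91 with ZnSO4. The low value on ZnO NP replicate 3 recurred on the other crybb2 probe, which read -3.11, -2.73 and -3.99 in ZnO NPs. The log2 fold changes of that other probe (A_15_P189841) were -0.35 in ZnO NPs and -0.39 in ZnSO4 (SE 0.48 for each, limma adjusted p = 0.67 and 0.69). With control replicate 1 left out they were 0.29 and 0.26. The crybb2 probe A_15_P626311 was well above background on both controls, on 2 of the 3 ZnO NP arrays and on no ZnSO4 array. It thus passed the filter only through the controls, where it is high, and its fold is not read as a change. With the slide side as a block the crybb2 differences in ZnSO4 were above 0, so that no direction is given.

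The crybb3 probes were picked out after their values were seen, as the members whose pattern over the 8 arrays was least like the crystallin median. The crybb3 probe A_15_P145496 read -3.53 and -3.26 without zinc, -3.28, -3.08 and -2.96 with ZnO NPs and -2.93, -3.05 and -3.03 with ZnSO4. Control replicate 1 was here the lowest array. The fitted log2 fold change was 0.28 in ZnO NPs (SE 0.12, adjusted p = 0.19) and 0.39 in ZnSO4 (SE 0.12, adjusted p = 0.19), and the second crybb3 probe gave -0.07 and 0.06.

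The gamma M crystallins are the largest family, and RefSeq (assembly GRCz12tu) places 29 of its genes and 2 gamma S genes in a single unbroken run of 31 neighbors. The many crygm2d copies are close relatives, so a probe for a crygm2d gene can bind the transcripts of others, and its signal is uncertain as to the gene. The probes crygm2d3 A_15_P621471 and crygm2d6 A_15_P106989 were picked after their values were seen, to show both ends of the signal range. The crygm2d3 probe read 8.78 and 8.56 without zinc, 8.43, 8.61 and 8.51 with ZnO NPs and 8.53, 8.44 and 8.42 with ZnSO4. The crygm2d6 probe read 1.15 and -0.52 without zinc, -0.30, 0.14 and 0.05 with ZnO NPs and -0.48, -0.52 and -0.61 with ZnSO4. The control arrays thus differed by 0.22 on the former and by 1.67 on the latter. Over the 34 tested gamma M probes, the median log2 fold change was -0.21 in ZnO NPs and -0.41 in ZnSO4, and none passed limma. Without control replicate 1 the medians were 0.13 in ZnO NPs, with 23 probes above 0, and -0.07 in ZnSO4, with 11 above 0. These 34 include a crygm1 probe that passed the filter only through the controls.

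Outside the crygm2d copies, crygmx and crygmxl1 had the smallest p of the family. The crygmx probe read 3.21 and 2.59 without zinc, 2.13, 2.27 and 2.35 with ZnO NPs and 2.04, 1.95 and 2.00 with ZnSO4, again 3 groups without overlap. Relative to the control it differed by -0.65 in ZnO NPs (SE 0.17, adjusted p = 0.11) and -0.90 in ZnSO4 (SE 0.17, adjusted p = 0.14), and -0.34 and -0.59 without control replicate 1. The crygmxl1 probe read -3.44 and -3.93 without zinc, -4.47, -4.44 and -4.86 with ZnO NPs and -4.67, -4.51 and -4.69 with ZnSO4. Both zinc forms lay below both controls and overlapped each other. The limma log2 fold change was -0.91 in ZnO NPs (SE 0.18, adjusted p = 0.098) and -0.94 in ZnSO4 (SE 0.18, adjusted p = 0.14), and -0.66 and -0.70 without control replicate 1.

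The probes of crygm1 disagreed. The crygm1 probe A_15_P671656 read -1.99 and -3.28 without zinc, -3.39, -3.18 and -3.06 with ZnO NPs and -3.53, -3.75 and -3.41 with ZnSO4, so that control replicate 1 alone was high. The crygm1 probe A_15_P139786 read -5.68 and -5.31 without zinc, -5.94, -7.65 and -5.71 with ZnO NPs and -7.08, -6.76 and -6.64 with ZnSO4. It was well above background on none of the ZnSO4 arrays, on only 1 of the ZnO NP arrays and on both controls. The probe A_15_P139786 thus passed the filter only through the controls, where it is high, so no fold or p is given for it. It is still among the probes counted above as lower in ZnSO4 at an unadjusted p and as lower than both controls. There it is no support for a change. Without control replicate 1 the log2 fold changes of A_15_P671656 were 0.073 in ZnO NPs and -0.28 in ZnSO4.

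Some gamma M probes were picked out after their values were seen because a single array set them apart. The tested crygm4 probe (A_15_P663126) read -5.07 and -5.01 without zinc, -4.85, -4.84 and -3.42 with ZnO NPs and -4.48, -5.28 and -5.44 with ZnSO4, and was high on ZnO NP replicate 3. The second crygm4 probe, not tested, had its highest value on the same array (-5.03) against -8.01 to -6.30 elsewhere. The crygm7 probe A_15_P101734 was well above background only on control replicate 1, where it read -3.84 against -8.52 to -6.94 on the other arrays. The second crygm7 probe was well above background on control replicate 1 and on ZnO NP replicate 3, at -5.70 and -5.69.

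Gamma N crystallins combine features of the beta and gamma families. The crygn2 probes A_15_P130451 and A_15_P627541 gave log2 fold changes of -0.42 and -0.39 in ZnO NPs and -0.70 and -0.67 in ZnSO4, with control replicate 1 higher than control replicate 2 by 1.21 and 1.13. The third crygn2 probe (A_15_P105308) gave -0.04 and -0.30. The 3 crygn2 probes gave, without control replicate 1, 0.17 to 0.35 in ZnO NPs and -0.10 to 0.084 in ZnSO4. The crygn1 probe read -1.10 and -1.74 without zinc, -1.85, -2.23 and -2.02 with ZnO NPs and -1.96, -2.10 and -1.85 with ZnSO4. Here both zinc forms lay below the controls and overlapped each other, with log2 fold changes of -0.61 (SE 0.20, adjusted p = 0.13) and -0.55 (SE 0.20, adjusted p = 0.22), and -0.29 and -0.23 without control replicate 1.

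Gamma S crystallin is a gamma family member of the outer lens fibers in mammals. The crygs1 probe read -1.32 and -3.21 without zinc, -2.87, -3.22 and -2.75 with ZnO NPs and -3.20, -3.65 and -2.85 with ZnSO4. Its control arrays differed by 1.89, the widest gap among the 75 tested probes, and control replicate 2 lay within the range of each zinc form. The log2 fold changes of crygs1 were -0.68 (SE 0.50, adjusted p = 0.42) and -0.97 (SE 0.50, adjusted p = 0.34), and 0.27 and -0.02 without control replicate 1. For crygs3 they were -0.25 and -0.38. The crygs4 probe passed the filter only through ZnSO4, where its mean is highest, so no fold is given for it.

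Between the zinc forms, a difference that does not use the control values, most crystallin probes read higher with ZnO NPs. The compounds were given at different mass concentrations, for which the paper gives similar measured zinc. The median log2 difference, ZnO NPs minus ZnSO4, was 0.24 over the 75 probes and 0.01 over all tested probes, and 70 of 75 crystallin probes were above 0. None passed limma, nor did any of the other probes (0%). On 43 of 75 crystallin probes, all ZnO NP arrays were above all ZnSO4 arrays, against 8.89% of all probes, and on none were they all below. All 18 beta A probes, 6 of 11 beta B, 16 of 34 gamma M, 2 of 4 gamma N and 1 of 5 alpha probes were of that kind, and no gamma S probe was. Averaged by gene, this held for 23 of 47 crystallin genes, against 7.83% of the named genes tested. In 18 of 19 genes with several tested probes all probes had the same sign, which was below 0 for crybb3. Probes of a gene read the same samples, and the share over all genes is not given for this count.

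**Figure D3:**
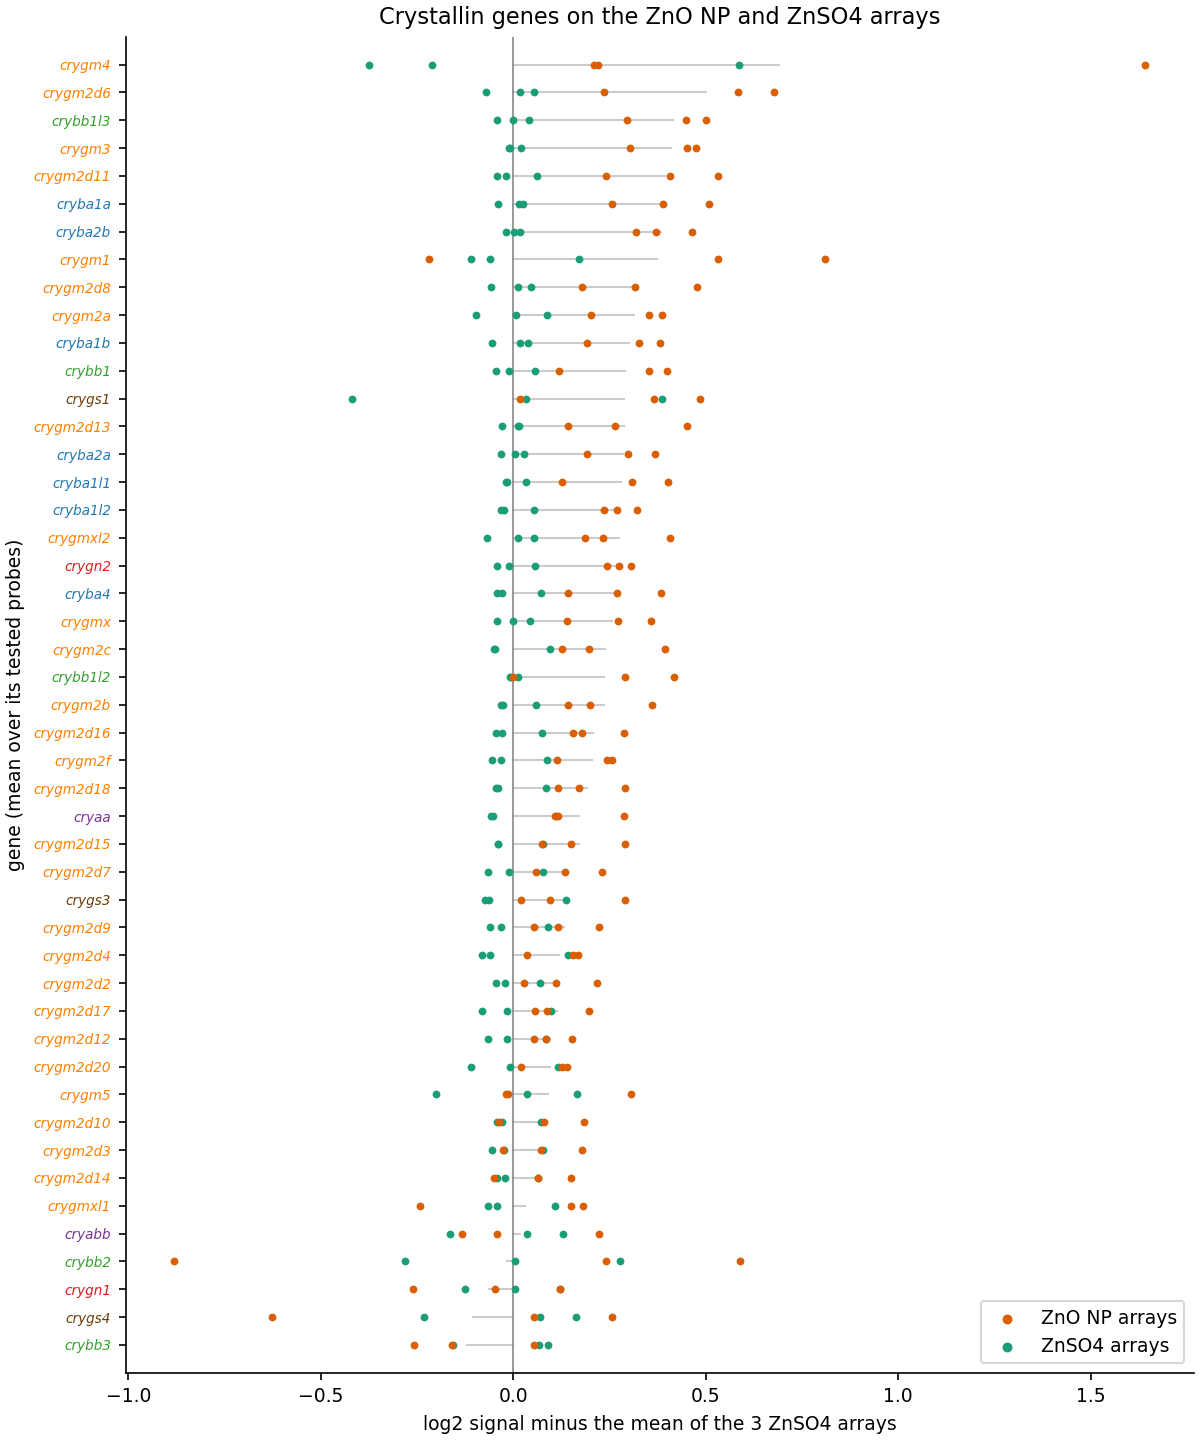
Log2 signal of each of the 47 tested crystallin genes (mean over its tested probes) on the ZnO NP arrays (orange points) and the ZnSO4 arrays (green points), minus the mean of the 3 ZnSO4 arrays, ordered by the ZnO NP mean (end of the gray line), with gene names colored by family. In 23 genes every ZnO NP point lies to the right of every ZnSO4 point.

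The difference was seen in every pair of arrays. In the 9 pairs of a ZnO NP and a ZnSO4 array, from 54 to 71 of the 75 crystallin probes were higher in ZnO NPs. The crystallin medians ran from 0.10 to 0.34, beside -0.007 to 0.035 over all tested probes. Pairs that share an array are not independent. Within the slide side that held both zinc forms, ZnO NP replicate 3 exceeded all 3 ZnSO4 arrays on 59 of 75 crystallin probes, against 29.8% of all probes, with a median difference of 0.26 from their mean.

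The limma spread in this comparison includes the gap between the control arrays. With all 8 arrays, 1 crystallin probe (crybb1l3, log2 difference 0.41, SE 0.17, adjusted p = 0.81) was higher in ZnO NPs at an unadjusted p under 0.05, whatever its fold, against 3.93% of all probes. Without control replicate 1 the spread rests on the 6 zinc-exposed arrays, and the median SE of the crystallin probes was 0.083 in place of 0.25. In that fit, 43 of 77 crystallin probes were higher at an unadjusted p under 0.05, against 5.02% of all probes, and none was lower. The smallest adjusted p was 0.33, for cryba2b (A_15_P113660, log2 difference 0.52, SE 0.054), so that no probe passed with the adjustment over all probes. The log2 differences for crygm3 and for the cryba1a probe A_15_P113448 were both 0.41 in this fit, with SE 0.066 and 0.084.

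Crystallin probes differed in how far the arrays spread. On the 18 probes with a mean processed signal over 100000, 16 of them gamma M, the median gap between the control arrays was 0.33. It was 1.27 on the 36 probes between 1000 and 100000 and 0.78 on the 21 dimmer probes. The median difference between ZnO NPs and ZnSO4 in these 3 sets was 0.13, 0.28 and 0.12. The brightest crystallin spot read 475919, below the saturation value of 778680. What part the signal range or the shared crygm2d sequence plays in these gaps was not tested.

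**Figure D4:**
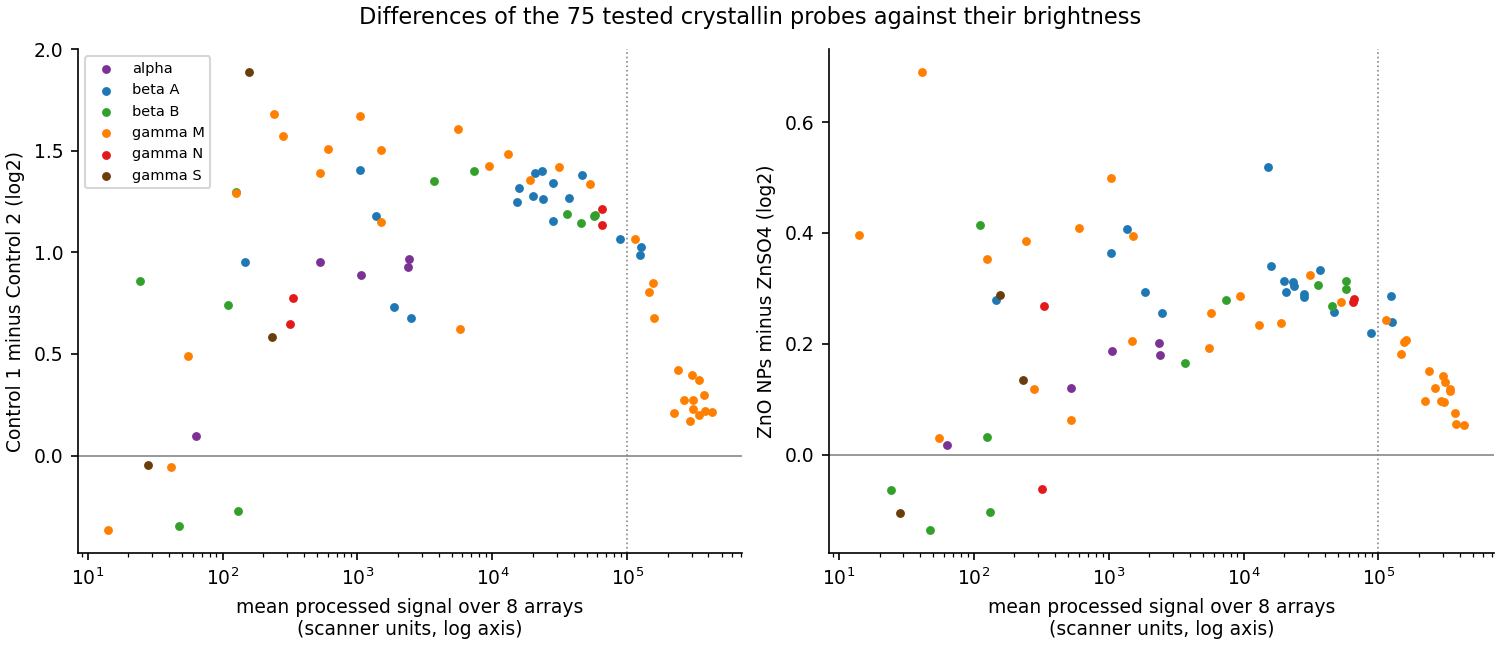
Difference between control replicates 1 and 2 (left) and between ZnO NPs and ZnSO4 (right), in log2 units, against the mean processed signal of each tested crystallin probe in scanner units on a log axis, colored by family, with a dotted line at 100000. Most probes to the right of the line are gamma M, and their median control gap is 0.33 against 1.27 for probes between 1000 and 100000.

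The median of lens structure genes other than crystallins had a similar profile over the arrays. Of 24 fiber and lens structure genes, 16 had tested probes, 28 in all, and none passed limma in either zinc form. Their median was 0.91 on control replicate 1, 0.01 on control replicate 2, from -0.05 to 0.03 in ZnO NPs and from -0.28 to -0.20 in ZnSO4. Of the 28 probes, 14 were at least 1.5-fold above all other arrays on control replicate 1, against 0.679% of all tested probes. The probes of cdh2, epha2a and caprin2 went the other way, above the control in both zinc forms, and control replicate 1 was not their highest array. The cdh2 probes gave 0.28 and 0.35 in ZnO NPs and 0.24 and 0.14 in ZnSO4. Those of epha2a gave 0.23 and 0.53 in ZnO NPs and 0.13 and 0.65 in ZnSO4. The water channel mipb (A_15_P205771), which was not named by rule, read 3.56 and 2.97 without zinc, 2.82, 2.91 and 2.94 with ZnO NPs and 2.61, 2.61 and 2.56 with ZnSO4, groups without overlap. On the other mipb probe (A_15_P774451) ZnO NPs and the control overlapped, with ZnO NP replicate 3 at 0.04 and control replicate 2 at -0.05. The beaded filament gene bfsp2 (A_15_P755001) read 2.48 and 0.96 without zinc, 1.27, 1.53 and 1.42 with ZnO NPs and 1.07, 1.16 and 1.03 with ZnSO4, so that control replicate 2 was the lowest array. On 18 of the 28 lens structure probes, all ZnO NP arrays exceeded all ZnSO4 arrays, against 8.89% of all probes. The median log2 difference was 0.24, beside 0.01 over all tested probes.

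The medians of lens transcription factors and of photoreceptor genes did not have that profile. The 49 probes of lens transcription factors had a median gap between the control arrays of -0.02, and the 51 photoreceptor probes one of -0.08. A single transcription factor probe was at least 1.5-fold above all other arrays on control replicate 1. It was that of foxe3, a forkhead factor of the lens epithelium, picked out after its values were seen, which read -3.75 and -4.89 without zinc, -4.94, -5.17 and -5.57 with ZnO NPs and -5.22, -5.76 and -5.65 with ZnSO4. All zinc-exposed arrays lay below both controls. The ZnSO4 readings were near those of the crybb2 probe A_15_P626311, which was not well above background on any ZnSO4 array. The foxe3 log2 fold changes of -0.91 and -1.23 (limma adjusted p = 0.17 and 0.18) are therefore not read as a change. They also include control replicate 1, which read 1.14 above control replicate 2. The photoreceptor medians were -0.02 in ZnO NPs and -0.08 in ZnSO4, against -0.38 and -0.62 for lens structure genes. Without control replicate 1 the lens structure medians were -0.04 in ZnO NPs and -0.25 in ZnSO4, beside -0.03 and -0.10 for photoreceptor genes. The summed level of the 51 photoreceptor probes, in multiples of the 75th percentile, was 1519 to 1551 without zinc, 1379 to 1469 with ZnO NPs and 1342 to 1433 with ZnSO4. That of the 28 lens structure probes was 58.9 to 102 without zinc, 62.7 to 66.7 with ZnO NPs and 55.1 to 56.8 with ZnSO4. Control replicate 1 also exceeded control replicate 2 in pigment cell genes, by a median of 0.77 over 16 probes, and in epidermis and cornea genes, by 0.54 over 48 probes, and the pigment median was lowest on control replicate 2 (-0.58). The median gap was 0.07 over 25 probes of other retina cells, 0.10 over 47 muscle probes and 0.13 over 11 probes of small heat shock proteins other than alpha crystallins.

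**Figure D5:**
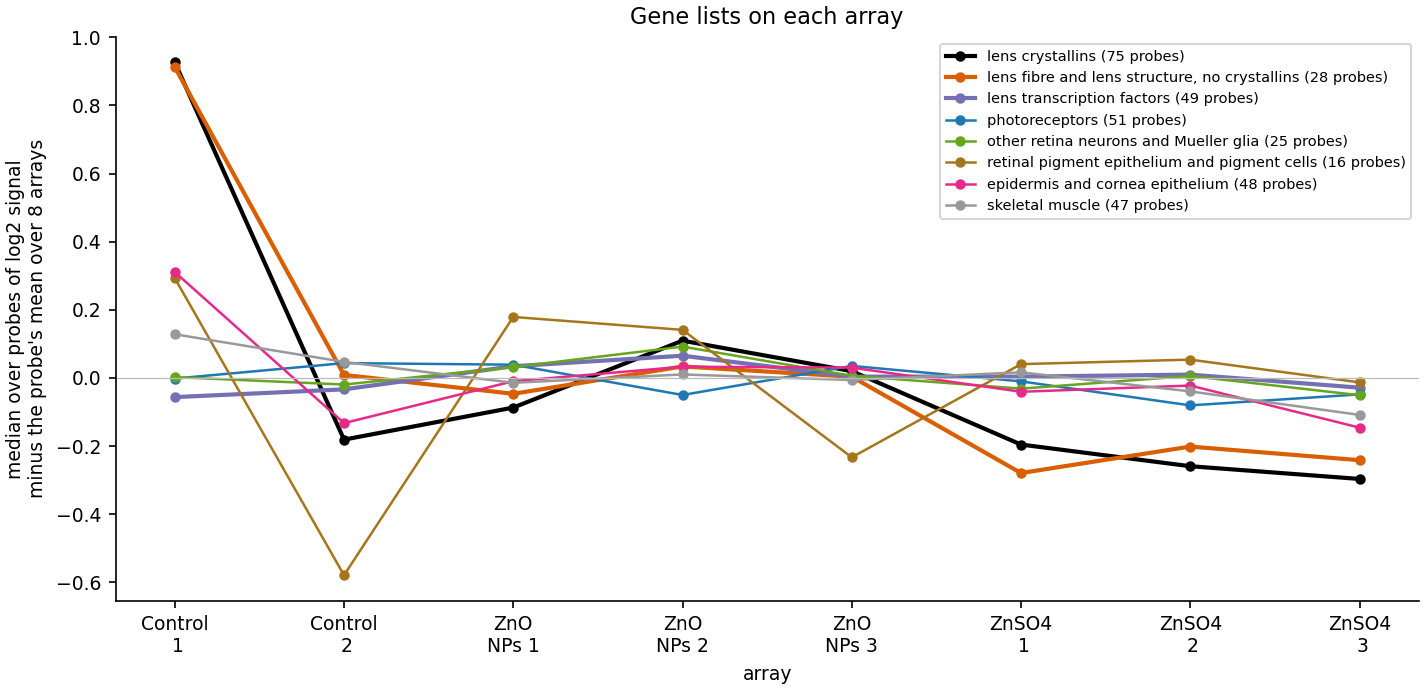
Median over probes of the log2 signal minus the probe's mean over 8 arrays (vertical axis), by array, for the crystallins and 7 other gene lists. Crystallins and lens structure genes lie together at 0.93 and 0.91 on control replicate 1, while lens transcription factors and photoreceptors stay within 0.09 of 0 on every array.

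Over the 8 arrays, 50 of the 75 crystallin probes had a Pearson r above 0.9 with the median crystallin profile, as did 0.974% of all tested probes. That profile is the median of the same 75 probes, so their share is raised by construction and is only a description. The arrays share a slide, and control replicate 1 is the extreme point of the profile. The named probes outside the rule with the highest r were crybgx (0.99), a beta gamma crystallin-like gene, bfsp2 (0.98) and the calpain capn3a (0.98 on each of 2 probes), followed by zgc:112285, aqp9a, endou2, tmie, cnot3b and lim2.4, all at 0.98. Over the 7 arrays without control replicate 1, r was 0.89 for crybgx, 0.90 for bfsp2, 0.96 and 0.87 for capn3a, and 0.78 for the lens membrane protein gene lim2.4. The crystallin probes with the lowest r were those of crybb3 (-0.74 and -0.40), crygs4 (-0.27) and crygm4 (0.04).

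In the RefSeq gene order, 4 of the crystallin neighbor pairs join a beta A and a beta B gene. They are cryba1l2 with crybb1l2, cryba4 with crybb1, cryba1l1 with crybb1l1, and cryba1a with crybb1l3. In ZnSO4 the log2 fold changes were -0.55 and -0.64 for the cryba4 probes beside -0.54 to -0.58 for the crybb1 probes, and -0.80 to -0.998 for cryba1l2 beside -0.38 and -0.70 for crybb1l2. For cryba1a they were -0.72 and -0.78 beside -0.92 for crybb1l3. The neighbor pair crygmx and crygmxl2 gave -0.90 and -0.52. In ZnSO4 and without control replicate 1, the signs differed within some of these pairs, with -0.042 and -0.066 for cryba4 beside 0.02 to 0.13 for crybb1, and -0.59 for crygmx beside 0.15 for crygmxl2.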

How the data were processed

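Gene expression was measured in whole larvae on 8 one-color Agilent arrays. The deposited scanner files hold spot intensity as the authors extracted it with Agilent Feature Extraction (10.10 in the submitters' notes, 10.10.1.1 in the file headers), and the deposited value table holds the authors' log2 values after a percentile shift. The table was checked against log2 scanner signals shifted by the 75th percentile and centered by probe (median absolute difference 0.0025, 99.9% of values within 0.02) and was used as an alternative. Control spots and outlier spots were left out of 62976, log2 values of repeated spots were averaged, and the 3 groups were fitted together in limma 3.58.1 (R 4.3.3), without a block, with 5 residual degrees of freedom. Accessions were named through RefSeq (GRCz12tu), which named 25854 of 43603 probes. The files use the Zv9 build, so no coordinates are given. The fit was tested on simulated data. Members and gene lists were chosen with earlier results of these data known. Probes named by rule were those of cryaa, cryaba and cryabb, the largest changes per family with all probes of those genes, the 3 smallest p per comparison, and the 10 most similar other probes. Other members with values were chosen after their values were seen. Replicate numbers were not used to pair the arrays in the main fit. Precision is limited by the number of arrays.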

Additional observations from a re-analysis of the deposited data

How the results depend on the processing

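No crystallin probe passed limma against the control or between the zinc forms under quantile normalization, normexp background correction, either filter on dim probes, the authors' value table, outlier spots kept, an intensity trend, the slide side as a block, 1 value per gene or the replicate block. Leaving out control replicate 2 gained calls, in a fit that the crygm7 probes entered only through control replicate 1, where they are high. That fit has a lone control, so its p-values leave out the gap between the control arrays. With 1 array left out at a time, crystallin probes called lower ranged from 0 to 52 in ZnO NPs and from 0 to 53 in ZnSO4, and their median log2 fold change from -0.96 to 0.19 and from -1.22 to -0.080, with the ends set by control replicates 2 and 1. Of the 21 named tested probes, 16 gained a call in each zinc form without control replicate 2. Probes lower at an unadjusted p ranged from 1 to 53 in ZnO NPs and from 3 to 57 in ZnSO4, probes higher from 0 to 1 in ZnO NPs, and probes higher in ZnO NPs than in ZnSO4 from 0 to 2.

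Under other call rules, crystallin probes lower in ZnO NPs numbered 5 (the methods' ANOVA with LSD, background 0.644%) and 9 (unadjusted limma p with the fold, background 0.953%). In ZnSO4 they numbered 9 (background 0.725%) and 18 (background 1.01%). With Tukey there were 2 in ZnO NPs and 5 in ZnSO4, and by fold alone 12 (with 1 higher) and 38. For these, as for most counts below, no share over all probes is given, so they are not read as a result about the crystallins. Fold alone gave 1 probe higher in ZnO NPs than in ZnSO4. At an unadjusted p and at least 1.5-fold, no filter gave 2 higher in ZnO NPs and 1 in ZnSO4, and normexp gave 5 lower in ZnO NPs. By that rule, 1 value per gene gave 8 genes lower in ZnSO4. The slide side as a block gave 6 lower and 1 higher in ZnSO4. Between the zinc forms it gave 1 probe with ZnO NPs higher and 2 with ZnSO4 higher. Correlations of deviations between same-numbered arrays ran from -0.07 to 0.15, and with so few arrays a group they cannot exclude a pairing. The replicate block gave 8 probes lower in ZnO NPs and 15 in ZnSO4 at an unadjusted p and at least 1.5-fold. The slide as a block could not be fitted, since there was 1 slide.

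Signs turned for some named probes, and the cause was not tested. None of these was called with all arrays. In ZnO NPs normexp gave 0.0069 for cryabb and 0.051 for crybb2 (A_15_P626311), and the slide side gave 0.0010 for crybb2 (A_15_P189841). In ZnSO4 the slide side gave 0.68 and 0.94 for crybb2. For ZnO NPs minus ZnSO4, normexp gave 0.022 for crygn1 and 0.22 for crybb2, quantile normalization -0.032 for cryabb and -0.026 for crygmxl1, and the slide side -0.043 for cryabb, -0.24 for crygmxl1 and -0.68 for crybb2. With 1 array left out, ranges in ZnO NPs were -1.62 to 0.27 for crygs1, -0.98 to 0.27 for cryba2b, -1.22 to 0.073 for crygm1, -1.003 to 0.29 for crybb2, and -0.43 to 0.35, -1.02 to 0.19 and -0.96 to 0.17 for the crygn2 probes. In ZnSO4 they were -0.69 to 0.084 for crygn2 and -1.03 to 0.26 for crybb2. Between the zinc forms they were -0.15 to 0.036 for crygn1, -0.087 to 0.091 for cryabb, -0.045 to 0.17 for crygmxl1, and -0.24 to 0.39 and -0.40 to 0.44 for crybb2.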
